A study of Homo sapiens with 23 samples.

Results

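Distal H3K27ac regions bound by BRD2 were examined in NCI-H23, an established human non-small cell lung cancer cell line. A region was an interval called as an H3K27ac peak in both replicate libraries, and it was distal when no H3K4me3 peak of either replicate lay within 1000 bp. It counted as bound by BRD2 when it overlapped a BRD2 peak by at least 1 bp in both BRD2 lists. The replicate H3K27ac lists shared 78120 intervals, of which 24866 lay near H3K4me3 and 53254 were distal. Of the distal regions, 1135 were bound by BRD2 in both lists (2.13%), 3594 overlapped BRD2 in 1 list and 48525 overlapped it in neither. Members were thus chosen by the H3K27ac, H3K4me3 and BRD2 peak calls, whose values are given as a description with no test. These 1135 regions are described here against the 48525 without BRD2.

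The series holds chromatin immunoprecipitation followed by sequencing (ChIP-seq) for 11 targets, BRD2 and 10 histone modifications, with 2 replicate libraries each and 1 input library, whose file was not used here. All libraries came from the same line in its culture medium. JQ1, an inhibitor of BET proteins, and DMSO are both named in the protocol text, but no sample is labelled with either, so the treatment state of each library is not known. The labels do not say whether replicates were separate cultures. Each library has its own peak list, and read depth is unknown.

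H3K27ac marks active promoters and active enhancers, H3K4me3 marks promoters, and H3K4me1 marks enhancers whether or not they are active. BRD2 belongs to the BET family, whose bromodomains bind acetylated lysines, among them those of the histone H4 tail, and it is known as a regulator of transcription. H4K5ac, H4K8ac and H4K12ac are acetylations of single lysines of that tail, and H4K5acK8ac is the tail acetylated at both of the lysines in its name, for which the labels give a self-produced antibody. Distal here means only that no H3K4me3 peak was close, since no gene annotation in the build of the lists was used.

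BRD2 calls decided membership, so their values describe how the regions were chosen. The median fold enrichment of the strongest BRD2 peak in a member was 3.25 in replicate 1, with values from 1.82 to 9.19. In replicate 2 it was 4.95, with values from 2.16 to 19.9. The medians over all peaks of the BRD2 lists were lower, 3.05 and 3.83. A member's value is that of its strongest peak, so these medians are not of the same kind. Many calls were weak: the BRD2 peak had a q of at most 0.05 in 636 members in replicate 1 (56.0%), in 1039 in replicate 2 (91.5%) and in both lists in 613 (54.0%). A −log10 q of at least 5 in both lists was reached by 119 members (10.5%). Replicate 1 is thus the weaker BRD2 library at these regions. With BRD2 peaks limited to a q of at most 0.05, 1.15% of distal regions would be bound, and with a −log10 q of at least 5, 0.223%. With the replicate 1 list alone the share would be 4.52%, and with the replicate 2 list alone 6.50%. With the H3K27ac list of replicate 1 alone in place of the shared intervals it would be 1.19%, and with H3K27ac peaks of a −log10 q of at least 5 it would be 4.66%.

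The rule asks for a BRD2 peak of each list in the region, not for the same peak. In 926 members (81.6%) the BRD2 peaks of the replicates overlapped each other, and in 209 (18.4%) they lay at different places in the region. The strongest BRD2 summits of the replicates were 194 bp apart at the median and within 250 bp of each other in 641 members (56.5%). Most members held 1 BRD2 peak, 73.7% in replicate 1 and 58.9% in replicate 2, and the largest number in a member was 15 and 17. BRD2 peaks covered 14.9% of the bases of the members in replicate 1 and 29.7% in replicate 2, taken over all members together.

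BRD2 was mostly found elsewhere. Of all shared H3K27ac intervals with BRD2 in both lists, 9.75% were distal, and 10505 of the remaining ones near H3K4me3 made up 42.2% of the intervals dropped there. At H3K27ac intervals that overlapped H3K4me3 the median fold enrichment of BRD2 was 4.33 in replicate 1 and 8.59 in replicate 2, both above the values of the distal members. Just inside the limit, beyond 1000 and up to 1500 bp from H3K4me3, 25 of 1738 intervals were bound (1.44%). Just outside it, beyond 500 and up to 1000 bp, 21 of 1976 were (1.06%). BRD2 fold enrichment on the inner side was 3.42 and 4.31 and on the outer side 3.50 and 4.57 in replicates 1 and 2. H4K5acK8ac was called at 96% and 100% of the bound intervals just inside the limit and at 100% of those just outside in both libraries.

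Members were wide. Their median width was 2046 bp, with values from 191 to 21041 bp, against 341 bp in regions without BRD2, a ratio of 6. Regions with BRD2 in 1 list lay between, with a median of 789.5 bp. Of the members, 51.1% were wider than 2000 bp, and of the regions without BRD2, 2.72%. The share bound by BRD2 went from 0.353% of regions under 500 bp to 5.20% at 1000 to 2000 bp and 52.2% at 5000 bp or more (179 of 343). Only a small part of distal regions is that wide, and the members held 9.78% of all distal H3K27ac bases. A wider region also has more bases on which a BRD2 peak can fall, so its part in this relation cannot be told apart from the choice of members. On the 22 autosomes the ratio of median widths ran from 4.29 to 8.36. It was 2.92 with the BRD2 list of replicate 1 alone, 3.59 with that of replicate 2 alone, and 3.57 with H3K27ac peaks of a −log10 q of at least 5.

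**Figure D1:**
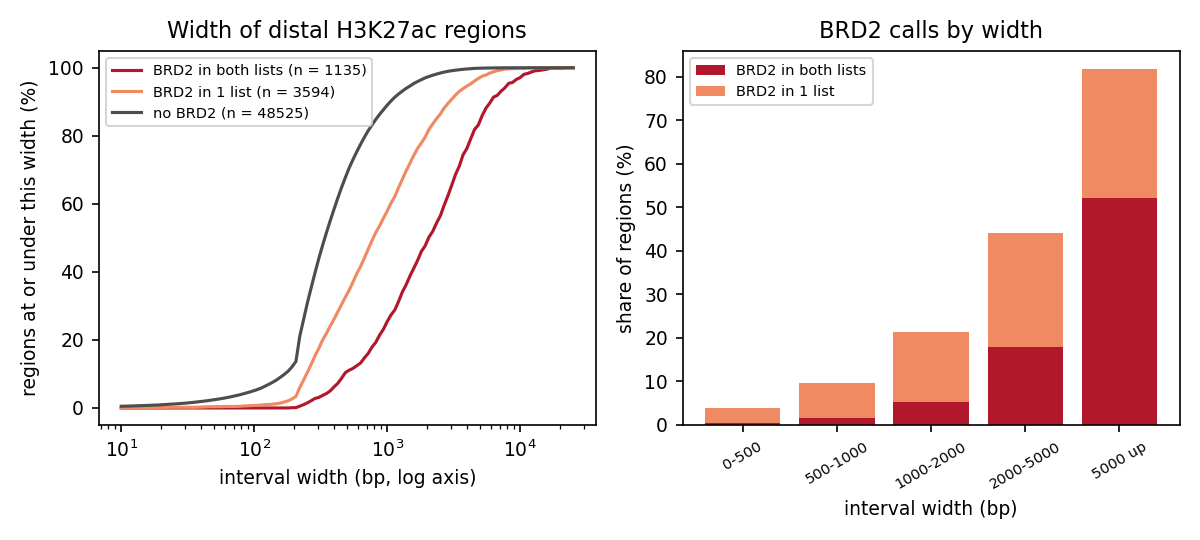
Left, the cumulative share of distal H3K27ac regions (y axis, %) by interval width (x axis, bp, log axis) for regions with BRD2 in both lists, in 1 list and in neither. Right, the share of regions (%) with BRD2 in both lists or in 1 list by width class, each from its lower bound up to but not including its upper bound; the share bound in both lists reaches 52.2% in the widest class.

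The H3K27ac peaks themselves were stronger at members, a property close to the rule and given as a description. The median H3K27ac fold enrichment of the members was 14.5 in replicate 1 and 26.4 in replicate 2, against 3.97 and 4.19 in regions without BRD2. The ranges overlapped, from 1.92 to 88.9 in members and from 1.73 to 104.7 in regions without BRD2 in replicate 1. Regions were ranked by the −log10 q of H3K27ac in both lists. The top 20% of the ranking held 947 of the 1135 members, and the top 2% held 417, which were 39.1% of the regions there. In that top class 292 regions had no BRD2 peak in either list. The −log10 q and fold enrichment of H3K27ac are those of the whole peaks that overlap in a region. A long peak can hold several regions, so a region without BRD2 can share these values with a member.

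Nearly every member carried all 4 acetylation marks of histone H4. H4K5acK8ac was called at 1125 members in replicate 1 (99.1%, 95% Wilson interval 98.4% to 99.5%) and at 1129 in replicate 2 (99.5%, 98.9% to 99.8%). Over all distal regions these shares were 43.3% and 42.2%, and in regions without BRD2 39.4% and 38.0%. The difference between members and regions without BRD2 was 60.6 ± 1.23 percentage points (SD between mark libraries, n = 2). H4K5ac was called at 99.5% and 99.6% of members, 45.8% and 45.2% of all distal regions and 41.8% and 41.2% of regions without BRD2. That difference was 58.0 ± 0.511 points (n = 2). Both marks were thus at their ceiling in the members.

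H4K12ac had the largest difference of the 4 H4 marks at an overlap of 1 bp. It was called at 1120 members in replicate 1 (98.7%) and 1107 in replicate 2 (97.5%), at 26.9% and 23.9% of all distal regions, and at 22.2% and 19.4% of regions without BRD2. The difference was 77.3 ± 1.14 points (n = 2). The order turned under other measures: with mark peaks of a −log10 q of at least 5 the difference was 82.2 for H4K5ac and 79.7 for H4K12ac, and with at least 50% of the interval covered it was 68.3, 67.2 and 62.4 for H4K5ac, H4K5acK8ac and H4K12ac. H4K8ac was called at 97.8% and 95.9% of members, at 42.3% and 26.7% of all distal regions and at 38.6% and 22.3% of regions without BRD2. Its difference of 66.4 ± 10.2 points (n = 2) was the least even between libraries of the 4 H4 marks, with 59.2 in replicate 1 and 73.7 in replicate 2. The H4K8ac list of replicate 1 is the longer, with 224726 peaks against 116852.

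No test was made of these differences. Each mark has 2 libraries and each library gives both shares, so no two-sided sign-flip p over these 2 pairs could go below 0.5. Regions are not replicates. Each difference was larger than the SD between mark libraries, an SD taken with the members fixed. On every autosome each difference was above 0, from 51.6 to 74.0 points for H4K5acK8ac and from 69.1 to 88.1 for H4K12ac. With the BRD2 list of replicate 1 alone the differences were 38.1 points for H4K5acK8ac, 39.4 for H4K5ac, 43.1 for H4K8ac and 47.3 for H4K12ac. Regions with BRD2 in the replicate 1 list only carried H4K5acK8ac at 59.8% and 62.5% in its libraries, and those with BRD2 in the replicate 2 list only at 89.1% and 89.9%.

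**Figure D2:**
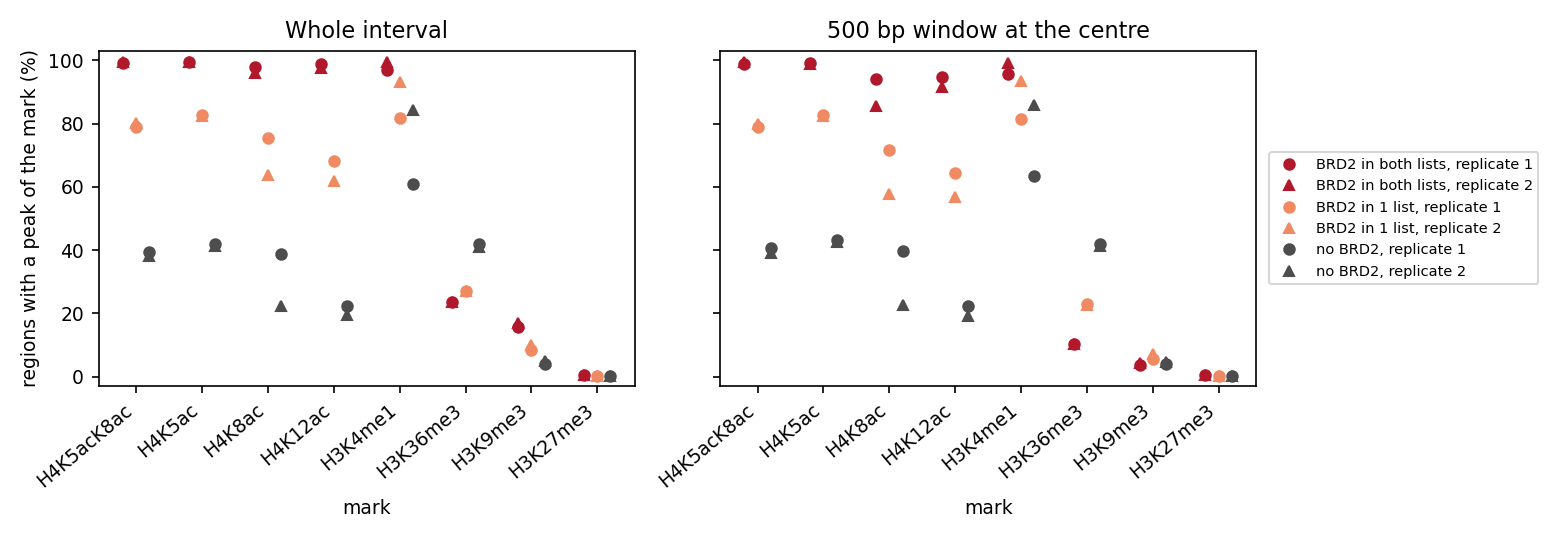
Share of distal H3K27ac regions (y axis, %) with a peak of each mark (x axis) in the whole interval (left) and in a 500 bp window at its centre (right). Circles are replicate 1 and triangles replicate 2 of the mark; red is BRD2 in both lists (n = 1135), orange BRD2 in 1 list (n = 3594) and grey no BRD2 (n = 48525), and for H4K12ac the red points lie at 98.7% and 97.5% on the left and the grey ones at 22.2% and 19.4%.

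A wide interval can meet any list more often than a narrow one. In windows of 500 bp at the centre of each region, H4K12ac was called at 94.8% and 91.6% of members and at 22.4% and 19.3% of regions without BRD2. The difference in windows was 72.4 ± 0.0541 points for H4K12ac, 59.3 ± 1.58 for H4K5acK8ac, 56.1 ± 0.313 for H4K5ac and 58.6 ± 6.19 for H4K8ac (n = 2 each). In the widest 2% of distal regions, with 378 members, the whole-interval differences were smaller: 3.84 points for H4K5acK8ac, 2.65 for H4K5ac, 15.6 for H4K8ac and 17.6 for H4K12ac. In windows in that class they were 13.0, 15.3, 36.2 and 43.4 points. The part of width in the differences over all regions was not tested.

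The marks also occurred together. All 4 H4 acetyl marks, each in both of its lists, were called at 1053 members (92.8%), at 10.1% of all distal regions and at 5.67% of regions without BRD2. At a further 43 members H4K8ac was the 1 mark not called in both of its lists, and at 16 members H4K12ac was. Read the other way, 19.5% of the 5390 distal regions with all 4 marks were bound by BRD2 in both lists and 29.5% in 1 list. With 3 marks 1.39% were bound in both lists, with 2 marks 0.173%, and with none 0.0177%. None of the 4 marks in both lists was the state of 53% of all distal regions and of 5 members. Most distal regions with all 4 marks nevertheless had no BRD2 peak in both lists.

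Within classes of H3K27ac strength from the 60th percentile up, the differences became smaller toward the top for all 4 H4 marks. In the classes of 20% below it they did not fall steadily. From the lowest class up, the H4K12ac difference there was 68.1, 69.8 and 74.3 points, with only 10, 20 and 44 members. Between the 80th and 85th percentile of H3K27ac strength, H4K5acK8ac was called at 100% of the 67 members in both libraries and at 67.9% and 62.8% of regions without BRD2. In the top 2% it was called at 100% of 417 members and at 96.9% and 96.6% of the 292 regions without BRD2. H4K5ac followed the same course, with 96.9% and 97.9% of regions without BRD2 in the top class. H4K12ac stopped short of that level: in the top class it was called at 99.5% and 99.8% of members and at 78.4% and 70.9% of regions without BRD2. H4K8ac was called at 99.3% and 98.8% of members there and at 73.6% and 61.0% of regions without BRD2. In the same class, windows of 500 bp gave H4K12ac at 94.96% and 92.3% of members and at 61.6% and 52.1% of regions without BRD2. The classes finer than 20% were chosen after the values in classes of 20% had been seen.

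**Figure D3:**
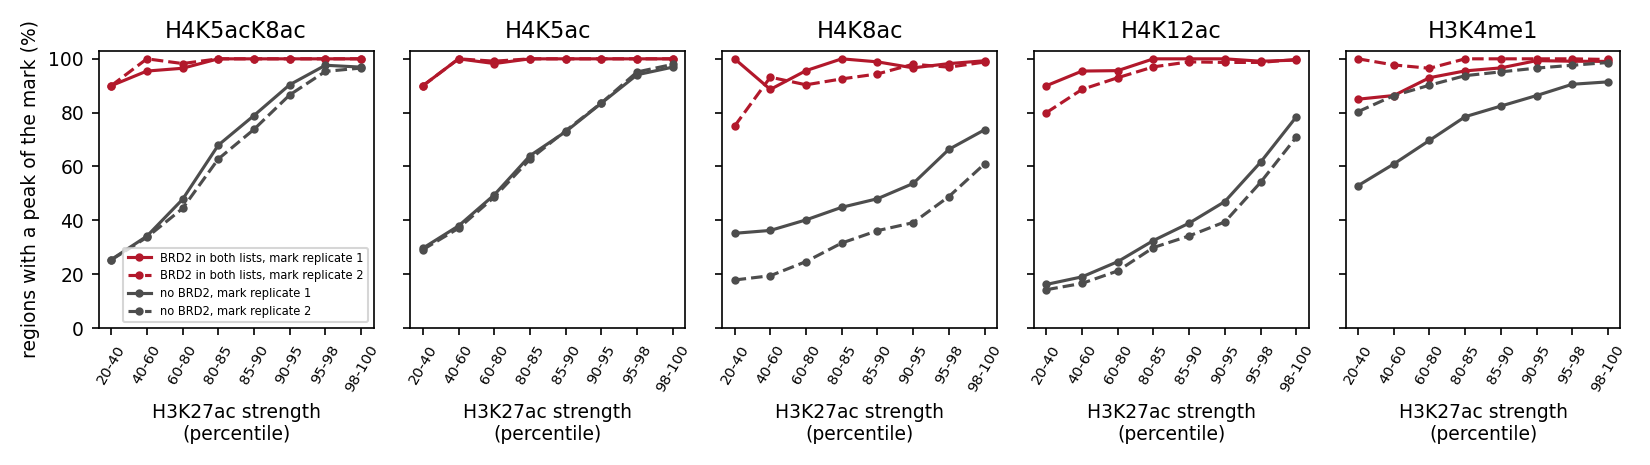
Share of regions (y axis, %) with a peak of each of 5 marks by percentile class of H3K27ac strength (x axis, ranked over all 53254 distal regions). Red is BRD2 in both lists, grey no BRD2, solid lines replicate 1 and dashed lines replicate 2 of the mark; classes with fewer than 20 members are not drawn, and the grey lines climb toward the red ones for all 4 H4 marks, to 96.9% and 96.6% for H4K5acK8ac and to 78.4% and 70.9% for H4K12ac in the top class.

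H4 acetylation peaks were also stronger at members within classes of H3K27ac strength. Fold enrichment was compared only within a list, at regions where the mark was called. Between the 90th and 95th percentile of H3K27ac strength, the median H3K27ac fold enrichment was 9.81 in members and 9.18 in regions without BRD2 in replicate 1, and 17.6 and 17.5 in replicate 2. The median −log10 q of H3K27ac in replicate 1 was 33.9 and 28.4. Width was not made equal, with medians of 1531 bp in members and 1161 bp in regions without BRD2. A wider region can hold more peaks from which the strongest is taken, and the part of width in the ratios was not tested. In the same class H4K5acK8ac had a median of 14.4 against 6.28 in replicate 1, a ratio of 2.29, and of 16.9 against 5.48 in replicate 2, a ratio of 3.08. The ratios were 2.24 and 2.19 for H4K5ac, 1.64 and 1.57 for H4K12ac, and 1.64 and 1.37 for H4K8ac. They were 1.34 and 1.44 for H3K4me1. In the top 2% H3K27ac itself differed in replicate 1, with 37.6 against 22.5, so the ratio of 2.20 for H4K5acK8ac there is not at equal H3K27ac. Over all distal regions the ratios were 3.94 and 4.44 for H4K5acK8ac, 2.69 and 2.64 for H4K5ac, 1.78 and 1.72 for H4K12ac and 1.66 and 1.44 for H4K8ac.

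The fold enrichments of BRD2 and of the marks were set side by side as a description, since BRD2 and H3K27ac calls chose the members. Across members, Spearman's rho between the fold enrichment of BRD2 and that of the mark averaged 0.579 for H4K12ac over the 4 combinations of libraries, with values from 0.497 to 0.663. It averaged 0.565 for H4K5ac, 0.554 for H4K5acK8ac and 0.443 for H4K8ac. For H3K27ac the mean was 0.216, with values from 0.179 to 0.274, and for H3K4me1 it was 0.202. The lists of the BRD2 replicates gave 0.539 with each other. The points of each value are the 1089 to 1135 members with a peak of the mark, which share the region and its width, and no test was made. Width was related to BRD2 fold enrichment with a rho of 0.111 and 0.114, and to H3K27ac fold enrichment with 0.825 and 0.696 in replicates 1 and 2.

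BRD2 summits lay somewhat toward the middle of the members and close to H4K12ac and H4K8ac summits. The strongest BRD2 summit fell in the central 50% of the region in 67.8% of members in replicate 1 and 73.1% in replicate 2. Even placement would put 50% of summits there. The median distance from it to the nearest H4K12ac summit was 151 bp (mean over 4 combinations of libraries, 135 to 165 bp). It was 165 bp for H4K8ac (150 to 187), 172 bp for H4K5acK8ac (147 to 197), 178 bp for H4K5ac (149 to 201), 217 bp for H3K27ac (161 to 266) and 275 bp for H3K4me1 (235 to 333). The ranges of the H4 marks overlapped each other, and that of H3K4me1 overlapped only that of H3K27ac. A list with many peaks has a summit nearby more often, and the lists differ in length.

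The BRD2 summit lay inside an H4K12ac peak in 88.8% of members (85.02% to 91.8%), while H4K12ac peaks covered 57.9% of the bases of the members. For H4K8ac these values were 84.1% and 55.5%. The gap between summit and base coverage was 30.9 percentage points for H4K12ac and 28.6 for H4K8ac. Each member counts once in the summit share, while bases are taken over all members together, so wide members weigh more in base coverage. The part of this weighting in the gap was not tested. H4K5acK8ac peaks held 97.9% of the summits and 93.0% of the bases, and H4K5ac peaks 97.8% and 88.8%, so little room was left above their base coverage. H3K4me1 peaks held 95.1% of the summits and 86.4% of the bases.

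**Figure D4:**
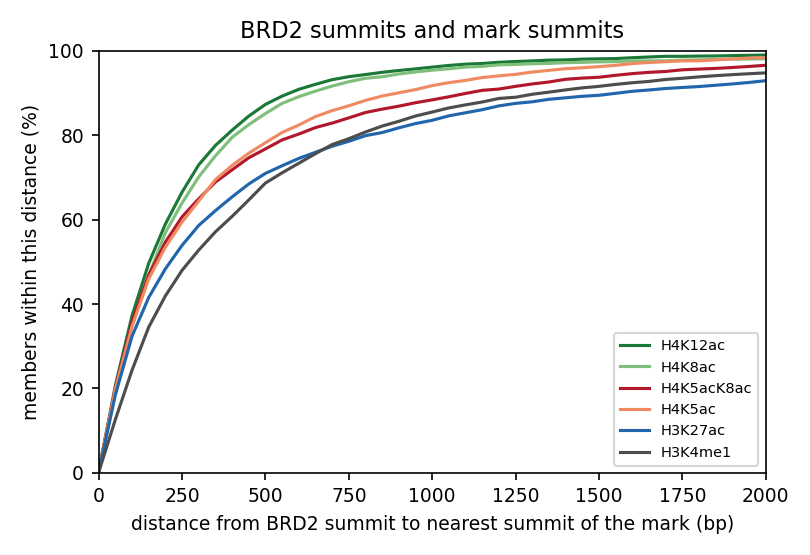
Share of the 1135 members (y axis, %, mean over the 4 combinations of BRD2 and mark libraries) whose strongest BRD2 summit has a summit of the mark within the distance on the x axis (bp). At 250 bp the lines stand at 66.5% for H4K12ac, 63.9% for H4K8ac, 60.6% for H4K5acK8ac, 59.4% for H4K5ac, 53.9% for H3K27ac and 48.0% for H3K4me1.

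H3K4me1, the enhancer mark, was called at 97.0% of members in replicate 1 and 99.4% in replicate 2. The shares over all distal regions were 63% and 85.2%, and in regions without BRD2 60.8% and 84.3%. The difference of 25.6 ± 15.0 points (SD, n = 2) differed between the H3K4me1 libraries, with 36.2 in replicate 1 and 15.1 in replicate 2, whose list is longer (204854 peaks against 141240). It was 44.7 points with the H3K27ac list of replicate 1 alone, 15.5 with the BRD2 list of replicate 1 alone and 14.3 with H3K27ac peaks of a −log10 q of at least 5. In regions between the 90th and 95th percentile of H3K27ac strength the mark was called at 99.3% and 100% of members and 86.4% and 96.6% of regions without BRD2. Only 3 members had H3K4me1 in neither list.

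H3K36me3, which covers the bodies of transcribed genes, was less frequent at members. It was called at 23.7% and 23.5% of members, 40.5% and 39.7% of all distal regions and 41.9% and 41.0% of regions without BRD2, a difference of -17.8 ± 0.527 points (n = 2). In 500 bp windows at the centre it was called at 10.2% of members in both libraries and at 41.95% and 41.1% of regions without BRD2. Where called, its median fold enrichment was 4.10 and 3.95 at members against 7.19 and 7.17 at regions without BRD2. In the class between the 85th and 90th percentile of H3K27ac strength it was called at 1.12% of the 89 members in both libraries and at 38.8% and 38.3% of regions without BRD2. In the top 2% the shares were 49.2% and 47.7% of members and 54.8% and 53.4% of regions without BRD2. With windows in that class they were 20.4% and 18.2% against 40.4% and 39.0%.

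H3K9me3 and H3K27me3, marks of repressed chromatin, were called at small shares of all distal regions and, over whole intervals, at larger shares of members. H3K9me3 was called at 15.6% and 17.0% of members, 4.65% and 5.48% of all distal regions and 4.12% and 4.89% of regions without BRD2. In 500 bp windows it was called at 3.7004% and 4.41% of members and 4.01% and 4.74% of regions without BRD2, so the whole-interval difference was not present at the centre. H3K27me3, the mark of Polycomb repression, was called at 6 members in each library (0.529%), at 0.122% and 0.161% of all distal regions and at 52 and 70 regions without BRD2. At the 6 members with H3K27me3 in both lists the median H3K27ac fold enrichment was 2.37 and 1.97, near the bottom of the members' range. At 3 members every list of the 4 H4 marks, H3K36me3, H3K27me3 and H3K9me3 had a peak (14 lists), and at no region without BRD2 did all of them.

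A distal neighbour was about as frequent at members as at other distal regions. Another distal H3K27ac region lay within 12.5 kb of 984 members (86.7%), against 88.6% of all distal regions and 88.7% of regions without BRD2. The difference was -1.98 percentage points. It was -1.05 with the H3K27ac list of replicate 1 alone, -0.173 with the BRD2 list of replicate 1 alone, and below 0 in every alternative run. The median gap to the nearest distal region was 283 bp for members and 392 bp for regions without BRD2. It was under 1000 bp for 70.6% and 66.9% of them. A region is the overlap of 2 peaks, so 1 long peak can hold several regions that count as neighbours. The 48525 regions without BRD2 lay in 38694 H3K27ac peaks of replicate 2. When regions with gaps up to 12.5 kb were joined, 14603 clusters resulted, and 957 held a member. Of regions alone in their cluster 2.49% were members, and of regions in clusters of 20 or more 1.98% were, both near the 2.13% of all distal regions.

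Most clusters with a member held only 1. Of the clusters with a member, 841 held 1 and 116 held more, with 294 members (25.9%) in the latter. Of the 841, 151 held no other region. Members were 2.13% of distal regions, and the count expected for a class that rare was not computed. Of the 984 members that shared a cluster with any other region, 647 (65.8%) were its widest region. That share goes back to the greater width of members and is no separate result. The median gap from a member to the nearest other member was 178436 bp. Distance to H3K4me3 did not separate the classes either: the median was 20619 bp for members and 19795 bp for regions without BRD2. Between 1000 and 2500 bp from H3K4me3, 1.61% of regions were bound, and beyond 50000 bp 2.05%.

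The share of distal regions bound by BRD2 ran over the autosomes from 1.10% on chromosome 4 to 3.82% on chromosome 20, with a median of 2.10%. Chromosome 20 held 81 members among 2120 distal regions and 4 of the 5 clusters with the most members outside chromosome 8, on which no region is named. The cluster with the most, chr20:48955111-49077764, held 38 regions over 122654 bp. Of these 8 were members, 4 had BRD2 in 1 list and 26 had none, and the members made up 59.96% of its H3K27ac bases. Its members were 1246 to 10410 bp wide, with BRD2 fold enrichments from 2.16 to 4.73 in replicate 1 and from 2.93 to 11.0 in replicate 2. All 8 members had the 4 H4 marks in both lists, as did 11 of the 26 regions without BRD2. A cluster of 40 regions and 5 members, chr20:48837246-48938799, lay 16311 bp before it.

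**Figure D5:**
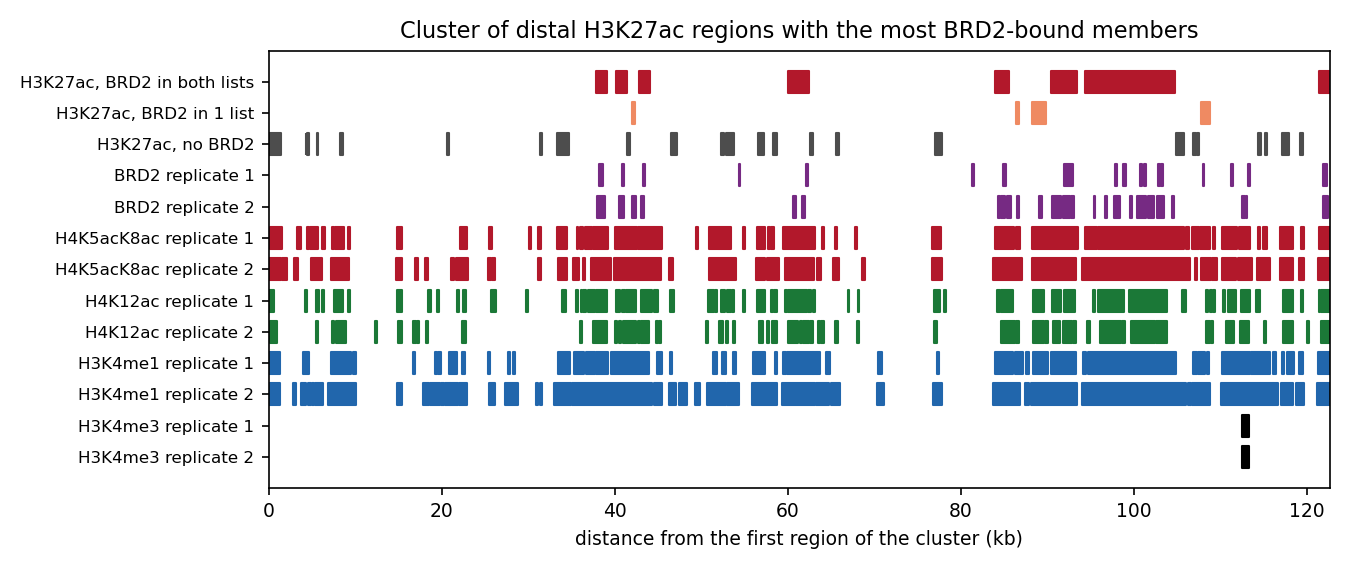
Map of the cluster with the most members, in kb from the start of its first region (x axis); bars are H3K27ac regions by BRD2 class and the peaks of BRD2, H4K5acK8ac, H4K12ac, H3K4me1 and H3K4me3 in each replicate (y axis). The 8 members include the widest regions of the cluster, and its H3K4me3 peaks lie near 113 kb.

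The other clusters differed in how much of their H3K27ac was bound. In chr20:43299585-43344647, 6 of 14 regions were members and held 70.1% of the H3K27ac bases, and 2 of its 4 regions without BRD2 had all 4 H4 marks. In chr17:57794736-57896134 the members were 5 of 51 regions and held 28.8% of the bases, with BRD2 fold enrichments up to 6.17 and 10.1. In chr20:52219184-52346549 they were 5 of 60 regions with 33.6% of the bases. Every member of the 5 clusters had all 4 H4 marks in both lists.

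The 5 members with the most significant BRD2 peaks differed widely in H3K27ac. Of these, chr11:69234408-69236488 lay 21317 bp from H3K4me3 and had BRD2 fold enrichments of 8.47 and 16.1 in replicates 1 and 2. Its H3K27ac values were 24.9 and 31.2, its H4K5acK8ac values 51.2 and 42.4, and its H4K12ac values 10.6 and 11.0, and it was the only one of the 5 with H3K27ac above the medians of the members in both libraries. It had no peak of H3K36me3, H3K9me3 or H3K27me3. In chr12:683603-686114, 1918 bp from H3K4me3, BRD2 stood at 9.19 and 16.4, H3K27ac at 11.2 and 17.3 and H4K5acK8ac at 50.7 and 43.5. In chr20:49434299-49435582 BRD2 stood at 6.49 and 15.2, H3K27ac at 10.2 and 10.96 and H4K5acK8ac at 39.3 and 29.5.

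At the other two the significance of BRD2 was high and the enrichment of H3K27ac low. In chr19:27731964-27732381, a region of 418 bp and 549989 bp from H3K4me3, the −log10 q of BRD2 was 33.8 and 73.8, the highest of the named members. Its fold enrichments were 2.84 and 5.38 for BRD2, 1.99 and 1.57 for H3K27ac and 3.63 and 1.89 for H4K5acK8ac. Peaks of H3K36me3, H3K27me3 and H3K9me3 were called there in every list, and H3K4me1 in replicate 1 only. In chr10:42398460-42398814, of 355 bp, the values were 3.37 and 6.24 for BRD2 and 1.92 and 1.70 for H3K27ac, again with H3K36me3, H3K27me3 and H3K9me3 in every list. Both regions thus had peaks of nearly every target at low enrichment. No list of regions prone to spurious signal was applied, and whether these 2 are of that kind was not tested. The members next in the ranking, chosen after their values were seen, were chr10:47055674-47059477 with BRD2 at 7.40 and 17.4 and chr20:49340510-49342587 with 7.17 and 19.9.

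The 5 members with none of the H4 marks in both lists had BRD2 fold enrichments from 2.76 to 3.23 in replicate 1 and from 2.95 to 3.76 in replicate 2. The most significant, chr1:151274424-151274931, had BRD2 fold enrichments of 3.23 and 3.76, with a −log10 q of 1.34 and 1.99. Its H3K27ac values were 3.77 and 2.30, and its H3K36me3 values were 13.5 in both libraries. In chr20:61839833-61840208 BRD2 stood at 2.76 and 2.95 and H3K36me3 at 16.9 and 14.8. In chr17:44842097-44842943 BRD2 stood at 2.95 and 3.39, with H3K4me1 at 5.74 and 6.65 and no H3K36me3. Each of these named members had an H4 peak in replicate 1 only. The values were 2.16 for H4K12ac on chr1 and 2.50 for H4K8ac on chr20. On chr17 they were 2.32 for H4K8ac and 2.31 for H4K12ac.

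For 3 regions without any BRD2 peak, the distal H3K27ac peaks that hold them were strong. Their H3K27ac values are those of the whole peaks, which can reach beyond the region. In chr16:90059806-90063536 H3K27ac fold enrichment was 50.7 and 63.4 and H4K5acK8ac 37.0 and 51.6, with H3K36me3 at 13.1 and 11.6. In chr1:203856271-203858385 H3K27ac was 53.1 and 61.1 and H4K5acK8ac 24.7 and 18.6. In chr1:234699840-234703562 H3K27ac was 56.6 and 47.5 and H4K5acK8ac 17.2 and 9.88. All 3 had the 4 H4 marks in both lists, with H4K12ac values from 3.72 to 7.26. These were below those of the chr11 member, which was named for its BRD2 significance. The median H4K12ac values of members where the mark was called were 5.41 and 5.37 in replicates 1 and 2. The chr16 region and chr1:203856271-203858385 lay above these medians in both libraries, and chr1:234699840-234703562 lay below them.

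Members were also divided by the BRD2 significance that chose them, as a description. At the 336 members whose weaker BRD2 peak had a −log10 q under 1, H4K5acK8ac was called at 97.9% and 98.5% and H4K12ac at 97.3% and 94.0%. At the 119 members with a −log10 q of at least 5 in both lists, both marks were called at 100% in every library. Median widths were 1604.5 bp and 2226 bp. In 500 bp windows, where shares were further from their ceiling, H4K8ac of replicate 2 went from 78.3% to 96.6% between these groups, H4K12ac of replicate 2 from 87.5% to 100%, and H3K4me1 of replicate 2 from 100% to 97.5%.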

How the data were processed

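The data were 22 lists of peaks, 1 per library, in the 10-column narrowPeak layout. Per the submitters' processing notes, BWA and MACS2 were used and the build was hg19; versions, thresholds, the control used and filters are not given in the sources used here. In the deposited lists column 7 is the fold enrichment of a peak over local background, a ratio. The deposited −log10 p and −log10 q are those of the peak caller, and the deposited score, the whole part of 10 times −log10 p, was not used. These are the authors' values, used only within a list; a fold enrichment given for a region is that of the strongest overlapping peak. The lists reach down to a −log10 p of about 2.00, and 64.7% and 28.1% of the BRD2 peaks had a q above 0.05.

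H3K27ac lists were intersected, distances were counted as bases between intervals, and overlap meant at least 1 bp, with Python 3.11.15, numpy 2.4.6, pandas 2.3.3, scipy 1.17.1 and matplotlib 3.10.9. The interval functions were tested on simulated data. H3K27ac strength was the sum of the ranks of −log10 q in both lists, taken from the whole H3K27ac peaks that overlap in a region. Of the members, 100 share an H3K27ac peak of a replicate with another member. Wilson intervals treat regions as independent and cover counting error only. Named regions are the 5 members with the highest smaller −log10 q of BRD2 and 3 such members with none of the H4 marks in both lists. The 5 clusters with most members (ties by share of members) and 3 regions without BRD2 with the highest smaller −log10 q of H3K27ac are also named. Coordinates are 1-based in hg19. No genome or annotation of hg19 was used, so no sequence or gene is given, and markers of the cell line were not checked. The labels of H3K9me3 replicate 2 disagree on its number, and the title was followed. Members and lists were chosen with earlier results of these data known.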

Additional observations from a re-analysis of the deposited data

How the results depend on the processing

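Of 131 values recomputed under other settings, 73 stayed within the spread used for comparison and 58 moved beyond it. For mark differences that spread was the SD between the 2 mark libraries. For the other results it was the SD between runs on the libraries of each replicate number. It was 0.511 points for H4K5ac, 1.14 for H4K12ac and 15.0 for H3K4me1. An H3K4me1 difference of 14.3 against 25.6 thus counted as within it, and an H4K12ac difference of 78.7 against 77.3 as beyond it. None changed direction, but the share of bound regions cannot be negative, so its values could not change direction. Where values moved the cause was not tested. With a BRD2 q of at most 0.05 the share of bound regions was 1.15% and the H4K12ac difference 78.7 points; with a BRD2 −log10 q of at least 5 these were 0.223% and 79.2, and the difference in neighbours -3.80. With an H3K27ac −log10 q of at least 5 the share was 4.66%, the width ratio 3.57, the neighbour difference -3.75, and the differences of H4K5acK8ac, H4K5ac and H4K12ac 42.4, 42.1 and 68.7. For the same 3 marks, intervals of at least 200 bp gave 57.1, 54.6 and 75.6, mark peaks of a −log10 q of at least 5 gave 76.2, 82.2 and 79.7, cover of at least 50% gave 67.2, 68.3 and 62.4 (H4K8ac 49.1), and 500 bp windows gave 59.3, 56.1 and 72.4. Joining distances of 5000 and 25000 bp gave neighbour differences of -1.37 and -1.36. Leaving out each library in turn gave 1.19% to 6.50% for the share, 38.1 to 75.6 for H4K5acK8ac, 39.4 to 72.0 for H4K5ac, 43.1 to 73.7 for H4K8ac, 47.3 to 82.4 for H4K12ac, 15.1 to 44.7 for H3K4me1, 2.92 to 8.11 for the width ratio and -1.60 to -0.173 for neighbours. Without regions with an H3K27me3 peak, a setting chosen after seeing the data, none of the 8 values moved. That setting left 1129 of 1135 members and 48425 of 48525 regions without BRD2, so the values had little room to move.

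Correlations between the deviations of libraries of the same number were computed over 45 pairs of 10 of the 11 targets. They ran from -0.0272 to 0.196, with 1 above 0.1. Whether the number had a shared effect on the differences was not tested. With the replicate block, regions and marks were called within each number and the 2 results averaged. The mean share was 4.27%. Mean differences were 47.2 for H4K5acK8ac, 46.4 for H4K5ac, 46.6 for H4K8ac, 50.7 for H4K12ac and 23.04 for H3K4me1. The mean width ratio was 3.44 and the mean neighbour difference -0.318. The 2 numbers differed widely. For the H4 marks in that order, replicate 1 gave 34.3, 36.6, 35.7 and 40.2 points, and replicate 2 gave 60.1, 56.2, 57.6 and 61.1. Width ratios were 2.23 and 4.64. The SDs between mark libraries were taken with the members fixed and do not hold this spread. Read depth is unknown, so a missing peak does not show that a mark or BRD2 is absent, and weak BRD2 calls limit membership. The planned sequence features were not run.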
